A study of Mus musculus with 24 samples.

Results

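Levels of 10 heat shock protein mRNAs were followed in livers of diet-induced obese (DIO) mice given IUB288, a code-named agonist of the glucagon receptor. The genes were Hspd1, Hspe1 and Hspa9 of the mitochondrion, and Hspa8, Hspa4, Hsph1, Hsp90aa1, Hsp90ab1, Dnaja1 and Hspb1 of the cytosol. They were looked up by symbol. All 10 were found among the 22355 genes of the count table, and all 10 were among the 11508 genes that passed the filter on low counts. Messenger RNA had been sequenced from frozen liver of 24 mice, 8 in each group. The first group had 4 d of IUB288 and livers taken 22 h after the last injection (22 h livers), and the second had 4 d of IUB288 and livers taken 4 h after it (4 h livers). The third had 4 d of vehicle and livers taken 22 h after the last injection (vehicle livers). All mice were DIO and the labels give neither a lean group nor strain, sex or age. As vehicle livers were taken at 22 h only, in the comparison of 4 h livers with vehicle livers the drug and the time since injection cannot be told apart.

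Heat shock proteins are chaperones, which bind unfolded protein chains and help them to fold, to assemble or to cross membranes. In the mitochondrial matrix, the Hsp70 protein Hspa9 pulls imported chains across the inner membrane, and the chaperonin barrel of Hspd1 (Hsp60) with its lid Hspe1 (Hsp10) folds them. In the cytosol, J-domain proteins such as Dnaja1 bring chains to Hspa8 (Hsc70), Hspa4 and Hsph1 exchange its nucleotide, and chains can pass on to the Hsp90 proteins, which also hold steroid hormone receptors and kinases in a form ready for activation. Under heat or proteotoxic stress, the heat shock factor Hsf1 binds heat shock elements, repeats of the unit GAA in alternating orientation, and turns on many of these genes. Hepatocytes make and secrete large amounts of protein and are rich in mitochondria, and most of these chaperones are present in liver without stress.

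Promoter windows from 250 bases before to 50 bases after the start, from RefSeq on build GRCm38.p6, were found for 6 of the 10 genes. Hsp90aa1, Hsp90ab1, Hspa8 and Hspa9 had no window. The windows were searched for heat shock elements because the genes share that regulator. Stretches that hold one or more elements are shown for the genes that have them, except for a further pair of units of Hsph1, 54 bases before its start at 149636315. Capitals mark the GAA units and the bases between them in each match to GAANNTTC or TTCNNGAA, either of which is a pair of units that reads the same on both strands, so that neighbouring pairs overlap.
Hspd1 and Hspe1, shared: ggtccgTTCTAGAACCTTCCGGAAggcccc
Hsph1: ctgcagaTTCTGGAAAGTTCtcctcagtag
Hspb1: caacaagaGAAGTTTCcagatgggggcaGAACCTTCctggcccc
Dnaja1: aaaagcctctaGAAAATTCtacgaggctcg
The first lies at chr1:55088053-55088082 on the plus strand, between the start of Hspe1 at 55088148, which is read to the right, and a start of Hspd1 at 55087932, which is read to the left. Between these starts lie 215 bases, and RefSeq has another start of Hspd1 at 55088243, inside Hspe1. The Hsph1 stretch lies at chr5:149636278-149636307 on the minus strand, within the first exon and past the start. The Hspb1 stretch lies at chr5:135887794-135887837 on the plus strand and the Dnaja1 stretch at chr4:40722333-40722362 on the plus strand, both before the start used here. A run of 3 or more units was present in the windows of Hspd1, Hspe1 and Hsph1, which is 3 of the 6 genes, against 0.662% of all 27025 genes searched in the same way. A pair of units was present in 5 of the 6 genes, all but Hspa4, against 17.0% of all genes. The full cAMP response element, TGACGTCA, to which the factor CREB binds below the glucagon receptor, was in none of the 6 and in 2.03% of all genes. At so low a share, finding none among 6 genes is uninformative. These matches describe letters only, and Hspd1 and Hspe1 share theirs.

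In both comparisons with vehicle, 8 of the 10 genes rose, and none fell, also at an unadjusted p under 0.05. The 8 were all except Dnaja1 and Hspb1, by limma-voom with Benjamini-Hochberg adjustment over all 11508 genes and a threshold of 0.05. In 22 h livers against vehicle livers, 36.8% of all tested genes passed that threshold and 17.6% were higher. In 4 h livers against vehicle livers, 44.2% passed and 21.7% were higher. The median log2 fold change of the 10 genes was 0.47 at 22 h, against -0.02 for all tested genes. At 4 h it was 0.36, against -0.07 for all tested genes. Both comparisons use the same 8 vehicle livers, so they are not independent of each other. Levels are given as CPM, a gene's count scaled to the total count of its library, and fold changes are those of the fitted model, which also applies TMM scaling.

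**Figure D1:**
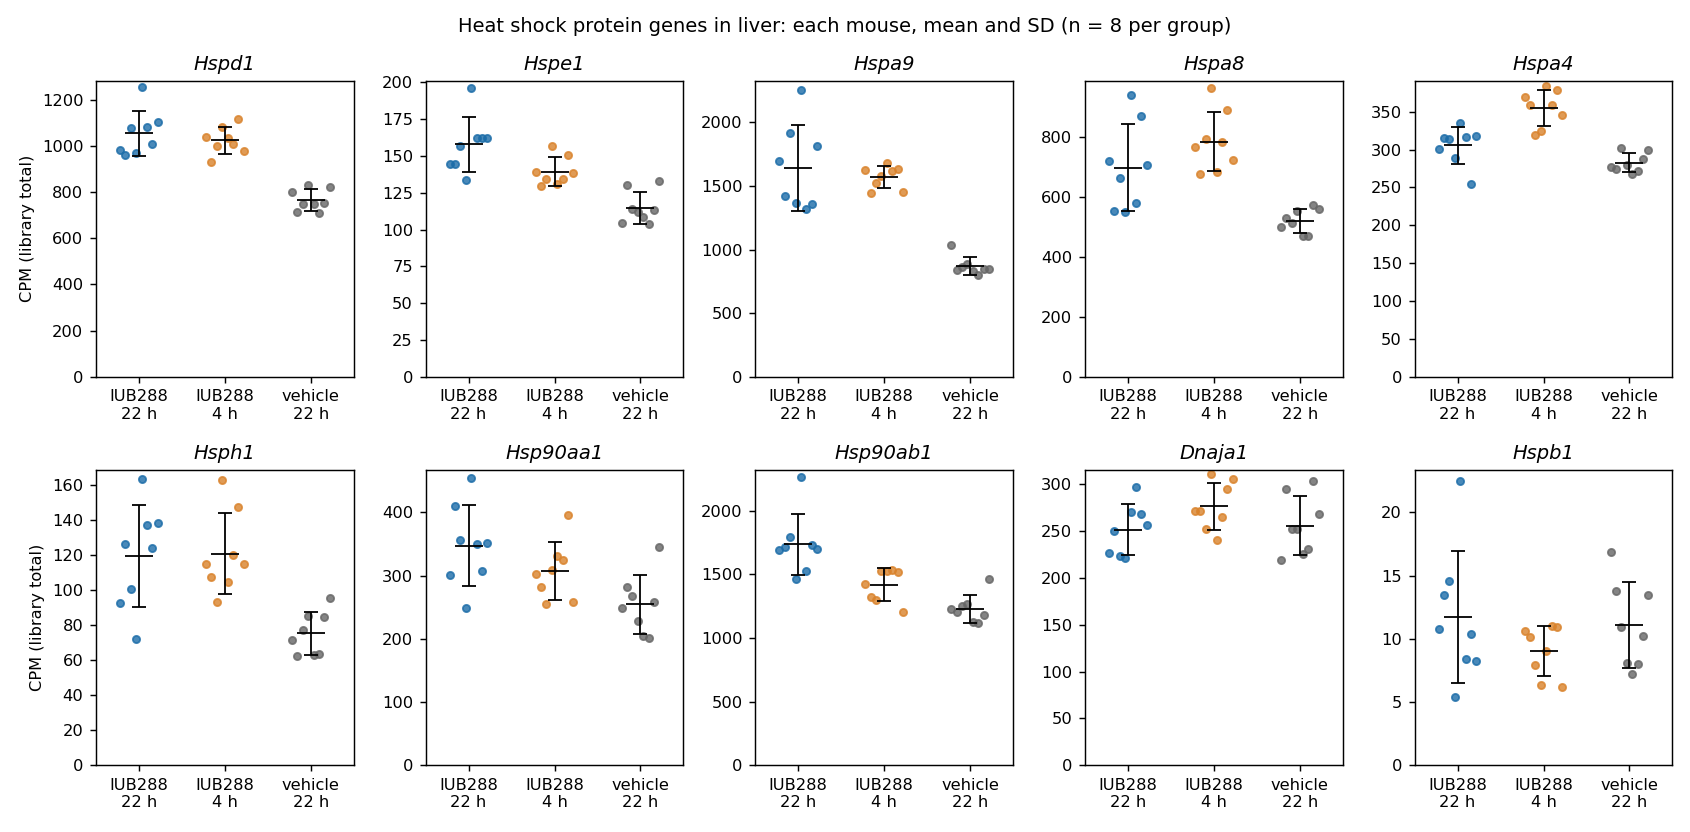
CPM of the 10 heat shock protein genes (vertical axis, from 0) in 22 h IUB288, 4 h IUB288 and vehicle livers, 1 point per mouse, with the mean and SD of 8 mice in black. The IUB288 points of Hspd1 and Hspa9 lie above every vehicle point, while those of Dnaja1 and Hspb1 overlap the vehicle points.

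Hspa9 (Entrez 15526), the Hsp70 of the matrix, had the largest fold change of the 10 genes in both comparisons with vehicle. It ranged from 1320 to 2252 CPM in 22 h livers (median 1557), from 1445 to 1677 CPM in 4 h livers (median 1599) and from 803 to 1033 CPM in vehicle livers (median 849). No IUB288 liver of either time overlapped a vehicle liver, and the 22 h livers were spread more widely than the 4 h livers. The log2 fold change was 0.92 ± 0.08 (SE) at 22 h against vehicle (limma-voom adjusted p = 2.08e-09), a 1.89-fold difference. At 4 h it was 0.91 ± 0.08 (limma-voom adjusted p = 6.2e-10). With each library left out in turn it stayed between 0.86 and 0.95 at 22 h and between 0.89 and 0.94 at 4 h.

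Hspd1 (Entrez 15510, chr1:55077833-55088243), the chaperonin itself, ranged from 961 to 1253 CPM in 22 h livers (median 1043), from 930 to 1118 CPM in 4 h livers (median 1021) and from 707 to 829 CPM in vehicle livers (median 749). Again no IUB288 liver overlapped a vehicle liver. Its log2 fold change was 0.48 ± 0.06 (SE) at 22 h (limma-voom adjusted p = 1.24e-06) and 0.47 ± 0.06 at 4 h (limma-voom adjusted p = 5.44e-07), both 1.39-fold. Of the pseudogenes of Hspd1 in the table, Hspd1-ps3 had the highest mean, 59.2 CPM, or 6.25% of the level of Hspd1. How the counting shared reads between them is not given in the sources used here.

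Hspe1 (Entrez 15528, chr1:55088148-55091317), the lid of the chaperonin, ranged from 133.3 to 196.2 CPM in 22 h livers (median 159), from 129.6 to 157 CPM in 4 h livers (median 137) and from 103.5 to 132.6 CPM in vehicle livers (median 112). All 8 of the 22 h livers stood above every vehicle liver, the nearest pair less than 1 CPM apart, and 6 of the 8 of the 4 h livers did. The log2 fold change was 0.48 ± 0.07 (SE) at 22 h (limma-voom adjusted p = 1.99e-05). At 4 h it was 0.33 ± 0.07 (limma-voom adjusted p = 5.78e-04).

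Hspd1 and Hspe1, which make the barrel and the lid of 1 machine, varied together among the 4 h livers and among the 22 h livers. Each relation missed the threshold in 1 other setting, library totals at 4 h and centring within runs of sample numbers at 22 h. With 8 livers a missed threshold does not show that a relation was absent. On log2 CPM after TMM scaling, Pearson's r was 0.945 over the 8 livers at 22 h (exact permutation p = 0.00134, adjusted p = 0.0123) and 0.924 over the 8 at 4 h (exact permutation p = 0.00164, adjusted p = 0.0123). Over the 8 vehicle livers it was 0.134 (exact permutation p = 0.747, adjusted p = 0.747). Spearman's rho was 0.905 at 22 h, 0.905 at 4 h (exact permutation p = 0.00456 and adjusted p = 0.0342 in each) and 0.19 in vehicle livers (exact permutation p = 0.665, adjusted p = 0.665). Without the 2 livers farthest from the median of Hspd1, r was 0.878 at 22 h, 0.927 at 4 h and 0.619 in vehicle livers. With library totals as the only scaling, r in 4 h livers was 0.789 and missed the threshold (exact permutation, adjusted p = 0.0619). Mice carry sample numbers 1 to 24, and at 22 h Hspe1 was at 161.9 to 196.2 CPM in numbers 13 to 24 against 133.3 to 157 CPM in numbers 1 to 12. With values centred within each run of 12 numbers, a check chosen after seeing the data, r was 0.687 at 22 h (exact permutation p = 0.102, adjusted p = 0.153), 0.935 at 4 h (exact permutation p = 0.00521, adjusted p = 0.0391) and 0.135 in vehicle livers (exact permutation p = 0.74, adjusted p = 0.74). The difference between the groups was not tested. In the GENCODE annotation the 2 genes share 112 exon bases on opposite strands, 4.24% of the exon bases of Hspd1 and 7.6% of those of Hspe1. Whether counting used strand is not given in the sources used here, and the part of these shared bases in the relation was not tested.

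**Figure D2:**
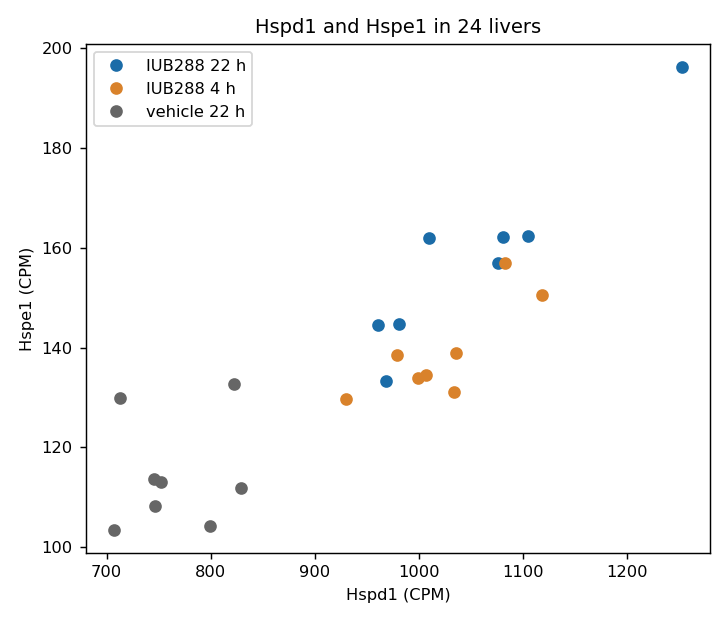
Hspe1 against Hspd1, both in CPM of the library total and both axes starting above 0, in 8 livers of each group, 1 point per mouse. The fifth 22 h replicate is at the top right (1253 CPM Hspd1, 196.2 CPM Hspe1), and the vehicle livers form a cloud at lower left.

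These were 2 of 15 relations tested, 5 pairs of genes in 3 groups, with 2-sided exact permutation tests adjusted over the 15. The third with an adjusted p of Pearson's r past the threshold was Hsp90aa1 with Hsph1 at 22 h (r = 0.873, exact permutation p = 0.0063, adjusted p = 0.0315). Its rho of 0.81 missed the threshold after adjustment (exact permutation p = 0.0218, adjusted p = 0.109), and r was 0.666 without the 2 livers farthest from the median, so this relation rests in part on those livers. Centred within runs, its r was 0.963 (exact permutation p = 0.00174, adjusted p = 0.0261). Hspd1 with Hspa9, both of the matrix, gave r of 0.503 at 22 h (exact permutation p = 0.201, adjusted p = 0.232), 0.791 at 4 h (exact permutation p = 0.015, adjusted p = 0.0562) and 0.592 in vehicle livers (exact permutation p = 0.134, adjusted p = 0.183).

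Among the cytosolic Hsp70 proteins, Hspa8 (Entrez 15481, chr9:40801276-40805202) is made constitutively and works in folding, in clathrin uncoating and in chaperone-mediated autophagy. It ranged from 548 to 940 CPM in 22 h livers (median 684), from 675 to 961 CPM in 4 h livers (median 774) and from 469 to 573 CPM in vehicle livers (median 520). The 4 h livers all stood above the vehicle livers, and 6 of the 8 of the 22 h livers did. The log2 fold change was 0.42 ± 0.10 (SE) at 22 h (limma-voom adjusted p = 0.00257) and 0.63 ± 0.10 at 4 h (limma-voom adjusted p = 1.61e-05). Counts of Hspa8 may hold reads of small nucleolar RNAs of the Snord14 family, which the annotation places on its exons.

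Hspa4 and Hsph1 are members of the Hsp110 family, the nucleotide exchange factors of Hspa8. Hspa4 (Entrez 15525, chr11:53259814-53300479) ranged from 255 to 336 CPM in 22 h livers (median 315), from 319 to 384 CPM in 4 h livers (median 359) and from 268 to 302 CPM in vehicle livers (median 278). The 4 h livers did not overlap the vehicle livers, whereas the 22 h livers did, with 1 of them below all vehicle livers. The log2 fold change was 0.13 ± 0.05 (SE) at 22 h (limma-voom adjusted p = 0.0393) and 0.38 ± 0.05 at 4 h (limma-voom adjusted p = 5.49e-07). The call at 22 h is fragile: it was lost without any 1 of vehicle replicates 1, 2, 5 and 6 or of 22 h replicates 2, 5, 6 and 8 (limma-voom adjusted p from 0.0552 to 0.0923), and also with library totals as the only scaling (adjusted p = 0.111).

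Hsph1 (Entrez 15505, chr5:149616843-149636498), which carries the 3-unit element printed above, ranged from 72.2 to 164 CPM in 22 h livers (median 125), from 93.4 to 163 CPM in 4 h livers (median 115) and from 62.2 to 95.3 CPM in vehicle livers (median 74.4). Above every vehicle liver stood 6 of the 8 of the 22 h livers and 7 of the 8 of the 4 h livers. Its log2 fold change was 0.67 ± 0.15 (SE) at 22 h (limma-voom adjusted p = 0.00112) and 0.74 ± 0.15 at 4 h (limma-voom adjusted p = 2.48e-04). Of the 8 genes that rose, it had the largest standard error.

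Both cytosolic Hsp90 genes rose. Hsp90ab1 (Entrez 15516, chr17:45567778-45573261), the constitutive paralog, ranged from 1461 to 2264 CPM in 22 h livers (median 1707), from 1202 to 1535 CPM in 4 h livers (median 1474) and from 1121 to 1464 CPM in vehicle livers (median 1215). Only 1 vehicle liver, replicate 8, reached the range of the 22 h livers, while the 4 h livers overlapped vehicle widely, with 4 of the 8 above every vehicle liver. Hsp90ab1 had a log2 fold change of 0.51 ± 0.07 (SE) at 22 h (limma-voom adjusted p = 2.79e-06) and 0.26 ± 0.07 at 4 h (limma-voom adjusted p = 0.00315).

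Hsp90aa1 (Entrez 15519, chr12:110691036-110696395), the stress-inducible paralog, ranged from 249 to 455 CPM in 22 h livers (median 351), from 256 to 396 CPM in 4 h livers (median 306) and from 201 to 346 CPM in vehicle livers (median 254). All 3 groups overlapped, and 5 of the 8 of the 22 h livers but 1 of the 8 of the 4 h livers stood above every vehicle liver. Its log2 fold change was 0.46 ± 0.11 (SE) at 22 h (limma-voom adjusted p = 0.0015) and 0.33 ± 0.11 at 4 h (limma-voom adjusted p = 0.0145). With library totals as the only scaling, the 4 h call was lost (log2 fold change 0.28, limma-voom adjusted p = 0.0554).

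Dnaja1 and Hspb1 did not pass the test against vehicle. Dnaja1 (Entrez 15502, chr4:40722468-40734965), the J-domain partner of Hspa8, ranged from 221 to 297 CPM in 22 h livers (median 253), from 241 to 311 CPM in 4 h livers (median 271) and from 219 to 304 CPM in vehicle livers (median 252). The 3 groups overlapped almost wholly. The log2 fold change was -0.01 at 22 h (95% confidence interval -0.19 to 0.18, limma-voom adjusted p = 0.97) and 0.17 at 4 h (95% confidence interval -0.02 to 0.35, limma-voom adjusted p = 0.141). Its exons share bases on the opposite strand with Smu1 (7.05% of the exon bases of Dnaja1) and Gm6297 (2.89%), so its counts may hold reads of those genes.

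Hspb1 (Entrez 15507, chr5:135887919-135889563), a small heat shock protein that holds unfolded chains without ATP, had the lowest level of the 10. It ranged from 5.41 to 22.5 CPM in 22 h livers (median 10.6), from 6.22 to 11 CPM in 4 h livers (median 9.61) and from 7.2 to 16.9 CPM in vehicle livers (median 10.6). The groups overlapped, and the log2 fold change was 0.05 at 22 h (95% confidence interval -0.38 to 0.49, limma-voom adjusted p = 0.868) and -0.21 at 4 h (95% confidence interval -0.66 to 0.24, limma-voom adjusted p = 0.448). These intervals are the widest of the 10 genes, and the one at 22 h includes a change as large as that of Hspd1. The highest vehicle liver was replicate 1, the liver with counts of Ucp1 and muscle genes described below. With each library left out in turn, the log2 fold change of Hspb1 stayed between -0.09 and 0.20 at 22 h. At 4 h it stayed between -0.31 and -0.09, with no call at either time. The pseudogene Hsp25-ps1 had a mean of 2.61 CPM, 24.6% of the level of Hspb1, so the level of Hspb1 is uncertain by reads the counting may have split.

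**Figure D3:**
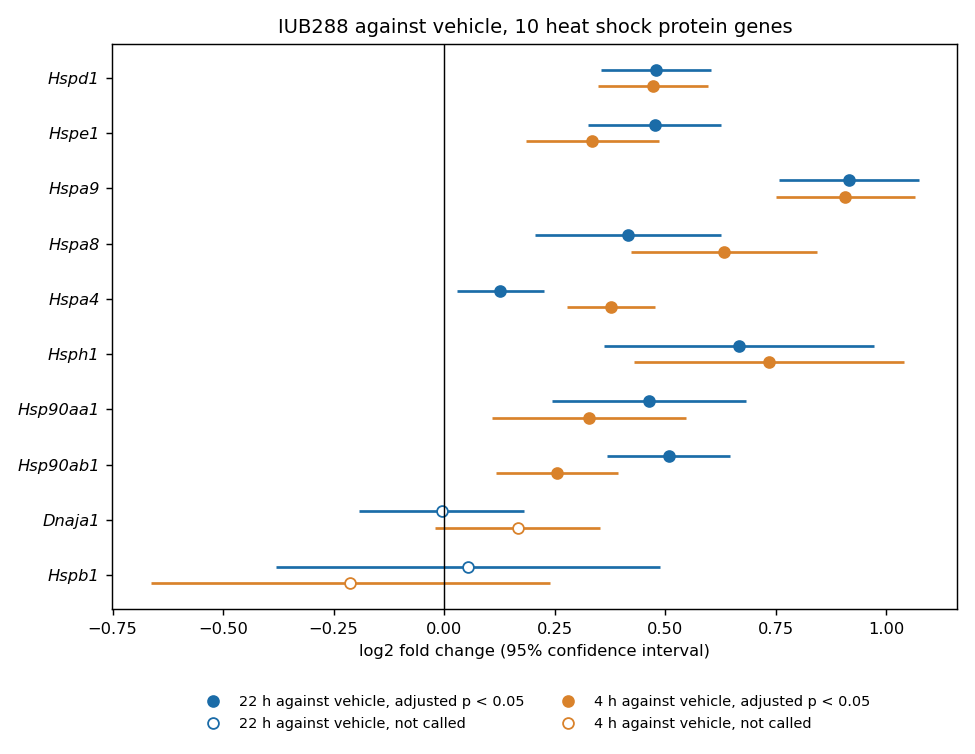
Model log2 fold changes of the 10 genes (horizontal axis) with 95% confidence intervals, at 22 h against vehicle in blue and at 4 h against vehicle in orange. Filled points have a limma-voom adjusted p under 0.05; Hspa9 lies farthest right at both times (0.92 and 0.91), and the intervals of Dnaja1 and Hspb1 cross 0.

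On CPM of the library total, groups without overlap were counted in each direction. At 22 h, 3 of the 10 genes (Hspd1, Hspe1 and Hspa9) had all 8 livers above all 8 vehicle livers, as did 3.52% of all tested genes, and 3.41% lay wholly below. At 4 h, 4 of the 10 did (Hspd1, Hspa9, Hspa8 and Hspa4), as did 7.49% of all tested genes, and 6.93% lay wholly below. None of the 10 lay wholly below. After TMM scaling, 4 of the 10 stood above at 22 h (Hspd1, Hspe1, Hspa9 and Hsp90ab1), against 4.2% of all tested genes. At 4 h, 5 of the 10 did after that scaling (Hspd1, Hspa9, Hspa8, Hspa4 and Hsph1), against 9.9%.

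The sample descriptions number the mice 1 to 24, with 4 mice of each group numbered 1 to 12 and 4 numbered 13 to 24, and do not say whether the 2 runs of numbers were handled apart. Within each run, Hspa9 rose in both comparisons: at 22 h by 0.81 (numbers 1 to 12) and 1.04 (numbers 13 to 24) on the log2 scale, and at 4 h by 0.84 and 0.95. Hspd1 and Hspe1 also passed in each run at both times, and at 22 h Hspe1 had a log2 fold change of 0.33 in numbers 1 to 12 and 0.63 in numbers 13 to 24. At 22 h, 3 other genes were past the threshold in numbers 13 to 24 only. Hspa8 had log2 fold changes of 0.23 in numbers 1 to 12 (limma-voom adjusted p = 0.259) and 0.61 in numbers 13 to 24 (adjusted p = 0.00455). Hsph1 had 0.38 (adjusted p = 0.231) and 0.96 (adjusted p = 4.33e-04), and Hsp90aa1 had 0.33 (adjusted p = 0.126) and 0.61 (adjusted p = 0.0115). The difference between the runs was not tested. At 4 h, Hsp90aa1 had 0.23 (limma-voom adjusted p = 0.216) and 0.41 (adjusted p = 0.0658) and Hsp90ab1 had 0.23 (adjusted p = 0.0782) and 0.25 (adjusted p = 0.0766), so neither passed within a run of 4 mice per group. With the run as a term in the model over all 24 mice, the same number of genes passed, 8 at 22 h and 8 at 4 h.

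Between the IUB288 livers, 2 of the 10 genes differed at 22 h against 4 h, where 29.3% of all tested genes passed. Hspa4 was lower at 22 h, by -0.25 ± 0.05 (SE) on the log2 scale (limma-voom adjusted p = 2.28e-04), with all 8 of the 22 h livers below the 4 h mean. Hsp90ab1 was higher at 22 h, by 0.25 ± 0.07 (SE) (limma-voom adjusted p = 0.00561), with all 8 above the 4 h mean. This contrast is also the test of whether the changes against the shared 22 h vehicle livers differ between the times. With no vehicle livers at 4 h, the part of sampling time alone cannot be told apart in it. For Hspd1 the log2 difference was 0.01 (95% confidence interval -0.12 to 0.13, limma-voom adjusted p = 0.945) and for Hspa9 0.01 (95% confidence interval -0.15 to 0.17, adjusted p = 0.948). Log2 differences between the group means beyond those bounds lie outside the intervals. For Hspa8 the log2 difference was -0.22 (95% confidence interval -0.43 to -0.01, limma-voom adjusted p = 0.118), and it passed without 22 h replicate 5 (-0.28, adjusted p = 0.0398) or without 22 h replicate 7 (-0.28, adjusted p = 0.038). Hspe1 had 0.14 (adjusted p = 0.154), Hsp90aa1 0.14 (adjusted p = 0.374), Hsph1 -0.07 (adjusted p = 0.774), Dnaja1 -0.17 (adjusted p = 0.168) and Hspb1 0.27 (adjusted p = 0.394).

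The 22 h replicate 5 was the highest of the 8 livers of its group for 9 of the 10 genes on CPM of the library total, all but Dnaja1, and for 7 of the 10 after TMM scaling. Its summed level of 8 hepatocyte marker genes was the lowest of the group, 53652 CPM against 59680 to 71590 CPM in the other 7. Its sums were also the lowest of the group for erythroid markers (128 CPM, others 143 to 224) and brown fat markers (15.6 CPM, others 34.2 to 123). The brown fat sum varied mostly with 1 of its genes, Elovl3, which ranged from 8.09 to 119 CPM in 22 h livers, while Ucp1 reached at most 0.556 CPM. Single markers in these sums went both ways. In that liver Alb (36297 CPM), Ttr (1467 CPM), Serpina1a (1001 CPM), Alas2 (73.1 CPM) and Elovl3 (8.09 CPM) were the lowest of the group. Fgb (6921 CPM) and Ucp1 (18 counts) were the highest. The part of this in the result was not tested, but without that liver the 22 h against vehicle comparison kept 7 of its 8 calls, and Hspa4 was the one lost (log2 fold change 0.12, limma-voom adjusted p = 0.0712).

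Per kilobase of exon in the GENCODE basic set, the order of the genes was nearly the same in the 3 groups. In vehicle livers Hsp90ab1 was highest, with 488 ± 43 CPM per kb (SD, n = 8), followed by Hspd1 with 315 ± 19, Hspa9 with 285 ± 23, Hspa8 with 217 ± 17 and Hspe1 with 148 ± 14 CPM per kb. The rest were Hsp90aa1 with 75.3 ± 13.8, Hspa4 with 61.2 ± 2.7, Dnaja1 with 44.3 ± 5.5, Hsph1 with 17.8 ± 2.9 and Hspb1 with 10.7 ± 3.3 CPM per kb. The ranges of 1 SD around the mean overlapped for Hspd1 with Hspa9 and for Hsp90aa1 with Hspa4, and for no other neighbours in this order. In both IUB288 groups Hspa9 stood above Hspd1, at 538 ± 110 against 435 ± 40 CPM per kb at 22 h and at 515 ± 29 against 422 ± 24 CPM per kb at 4 h, while the order of the other 8 was that of vehicle livers. These levels depend on the length used. With the exons of all annotated transcripts merged, Hspd1 stood above Hspa9 in every group, at 399.1 against 380.8 CPM per kb at 22 h and 387.3 against 364.1 CPM per kb at 4 h. In vehicle livers, Hspa8 was then at 121 and Hspe1 at 77.77 CPM per kb, and Hspb1 at 10.74 stood above Hsph1 at 10.37.

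Lists of related chaperones were read beside the 10 genes. They were drawn up with earlier results of these data known, and members of a list that had no row or failed the filter were not analysed here. Each count can be set beside the 17.6% of all tested genes that were higher at 22 h and the 21.7% that were higher at 4 h. In the TRiC chaperonin, the cytosolic barrel that folds actin and tubulin, 7 of the 8 subunits rose at 22 h and 7 of the 8 at 4 h. Cct6a was the one not called at either time, but passed at 4 h without 4 h replicate 6 (limma-voom adjusted p = 0.0297). Cct3 at 22 h (adjusted p = 0.0262) missed the threshold without 22 h replicate 5 or 6 or vehicle replicate 6 or 8 (adjusted p from 0.0511 to 0.0645). Cct5 had a log2 fold change of 0.38 at 22 h and 0.36 at 4 h, Cct8 0.25 and 0.28, and Cct2 0.18 and 0.23 (limma-voom adjusted p from 1.35e-06 to 0.00271). Of the 4 tested prefoldin subunits, which hand chains to TRiC, none passed at 22 h by limma-voom, also with no adjustment, and Vbp1 did at 4 h, but not once any 1 of 5 livers was dropped, namely replicates 6 and 7 at 4 h and 1, 3 and 6 among the vehicle livers (adjusted p from 0.0511 to 0.0824). Over the 12 genes together the median log2 fold change was 0.16 at 22 h and 0.20 at 4 h.

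Of 11 tested cochaperones of the cytosolic Hsp40, Hsp70 and Hsp90 systems, 6 rose and 1 fell at 22 h, where 17.6% of all tested genes were higher. At 4 h, 7 rose and 1 fell, where 21.7% were higher. Dnajb6, called higher at 4 h (limma-voom adjusted p = 0.0477), missed the threshold without any 1 of 16 libraries (adjusted p from 0.0522 to 0.105). Fkbp4, called higher at 22 h (adjusted p = 0.0278), missed it without any 1 of 5 (adjusted p from 0.0501 to 0.067). Ahsa1, which speeds the ATPase of Hsp90, had a log2 fold change of 0.51 at 22 h (limma-voom adjusted p = 1.57e-05) and 0.35 at 4 h (adjusted p = 6.08e-04). Dnajc2, a J-domain protein at the ribosome, had 0.54 at 22 h and 0.53 at 4 h (limma-voom adjusted p = 5.52e-06 and 2.47e-06). The gene that fell at 4 h was Fkbp5 (-0.88, limma-voom adjusted p = 0.0336), which missed the threshold when any 1 of replicates 5, 6 and 7 at 4 h and of vehicle replicates 2 and 7 was dropped (adjusted p from 0.0516 to 0.0836). A different gene, Unc45a, fell at 22 h, and it was among those that rose at 4 h. Without vehicle replicate 1, its log2 fold change was -0.33 at 22 h (limma-voom adjusted p = 0.00142) and 0.27 at 4 h (adjusted p = 0.00346). Bag2, a nucleotide exchange factor of Hsp70, was called at 4 h only (0.95, limma-voom adjusted p = 0.00107). At 22 h its log2 fold change was -0.37 (adjusted p = 0.27), and the difference of 22 h from 4 h was itself past the threshold (-1.32, adjusted p = 9.43e-05).

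Heat shock factors and their best known targets were called about as often as genes in general. Of 10 tested factors and stress-inducible targets, 3 rose and 1 fell at 22 h, where 36.8% of all tested genes passed and 17.6% were higher. At 4 h, 4 rose and 1 fell, where 44.2% passed and 21.7% were higher. Zfand2a was a further gene that fell at 22 h without 22 h replicate 3 or 5 (limma-voom adjusted p = 0.0353 and 0.0435), and Hsf2 one at 4 h without vehicle replicate 1 (adjusted p = 0.0221). Each was among the genes that rose at the other time. Without vehicle replicate 1, the log2 fold change of Zfand2a at 4 h was 0.29 (limma-voom adjusted p = 0.0157). That of Hsf2 at 22 h was 0.25 (adjusted p = 0.00533). Hsf1 itself had a log2 fold change of 0.25 at 22 h (limma-voom adjusted p = 0.0409) and 0.22 at 4 h (adjusted p = 0.0639). Its call at 22 h was lost without any 1 of 11 libraries (vehicle replicates 2 to 8 and 22 h replicates 4 to 7, limma-voom adjusted p from 0.0522 to 0.0914). At 4 h it passed without vehicle replicate 1, 4 h replicate 6 or 22 h replicate 7 (adjusted p from 0.0164 to 0.0493). Bag3, the stress-inducible partner of Hsp70 in autophagy, had 0.21 at 22 h (adjusted p = 0.137) and rose by 0.54 at 4 h (adjusted p = 2.83e-04). Hmox1, the heme oxygenase, had 0.02 at 22 h (adjusted p = 0.94) and rose by 0.75 at 4 h (adjusted p = 0.00239), and the ubiquitin gene Ubb rose by 0.19 at 22 h (adjusted p = 0.0133) and by 0.24 at 4 h (adjusted p = 0.00135). The gene that fell was Serpinh1, the collagen chaperone of the endoplasmic reticulum (-1.29 at 22 h, -0.96 at 4 h, limma-voom adjusted p = 0.00134 and 0.00718). Vehicle replicate 1 had 118.4 CPM of Serpinh1, the other vehicle livers 18.59 to 34.92, and without it the log2 fold change was -0.97 at 22 h (adjusted p = 3.28e-05) and -0.64 at 4 h (adjusted p = 9.99e-04). Serpinh1 is made mostly by fibroblast-like cells, and the summed stellate cell and fibroblast markers were also lower, at 207 to 640 CPM in 22 h livers, 364 to 681 CPM in 4 h livers and 693 to 1369 CPM in vehicle livers. In bulk liver, fewer cells of a type and less RNA per cell cannot be told apart.

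The strictly inducible Hsp70 genes had few counts. Hspa1a had 0 to 2 counts per library at 22 h, 0 to 4 at 4 h and 0 to 9 in vehicle livers, and Hspa1b had 0 to 9, 0 to 32 and 0 to 32. Neither passed the filter on low counts. With no filter, Hspa1a had log2 fold changes of -0.65 at 22 h (limma-voom adjusted p = 0.536) and -0.72 at 4 h (adjusted p = 0.452), and Hspa1b -0.92 (adjusted p = 0.583) and -0.73 (adjusted p = 0.651). Of 6 other tested Hsp70, Hsp110 and small heat shock genes, 3 fell and none rose at 22 h, where 36.8% of all tested genes passed. At 4 h, 3 fell and 1 rose, where 44.2% passed. Hspb6, among those that fell at 4 h (limma-voom adjusted p = 0.0286), missed the threshold without vehicle replicate 1 (adjusted p = 0.0624) or 4 h replicate 3 (adjusted p = 0.0554). Cryab, a small heat shock protein abundant in muscle and lens, had a log2 fold change of -1.15 at 22 h (limma-voom adjusted p = 0.00232) and -0.99 at 4 h (adjusted p = 0.00481). Vehicle replicate 1 had 11.25 CPM of Cryab, the other vehicle livers 2.768 to 5.735, and without it the values were -0.88 at 22 h (adjusted p = 0.0015) and -0.72 at 4 h (adjusted p = 0.00475). Hspa14, an Hsp70 at the ribosome, had -0.22 at 22 h and -0.23 at 4 h (adjusted p = 0.00769 and 0.00374). Hspa13, an Hsp70 of microsomes, had 0.05 at 22 h (adjusted p = 0.748) and 0.49 at 4 h (adjusted p = 0.0013).

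**Figure D4:**
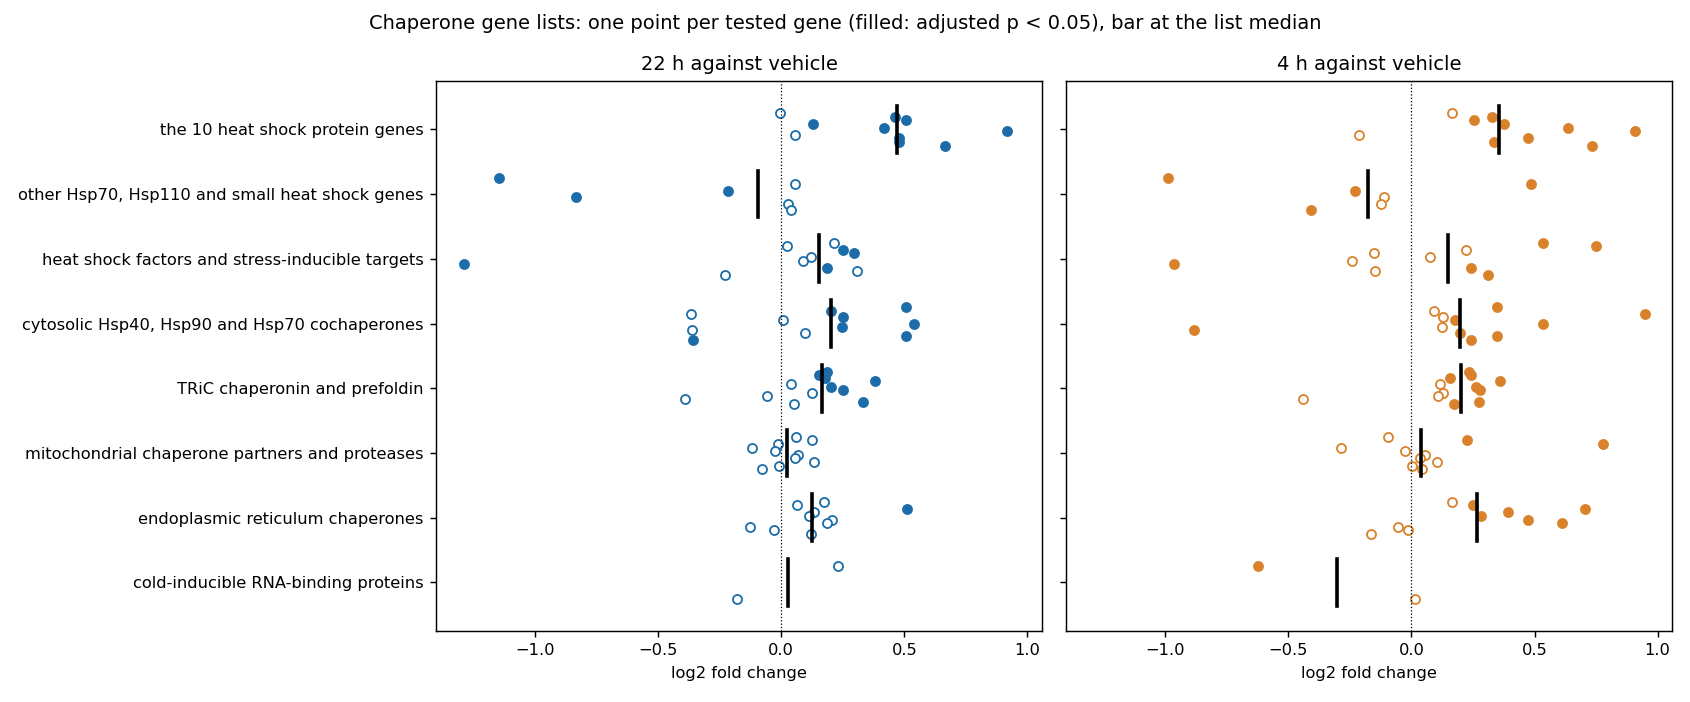
Log2 fold change (horizontal axis) of each tested gene of 8 groups of chaperone and related genes, at 22 h against vehicle (left, blue) and at 4 h against vehicle (right, orange), filled where the limma-voom adjusted p is under 0.05, with a black bar at each group's median. The 10 heat shock protein genes have the rightmost median at both times (0.47 and 0.36), and among the mitochondrial partners only Grpel2 (0.78) and Grpel1 (0.23) at 4 h are filled.

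The count of mitochondrial partners of Hspa9 and Hspd1 that were called rested on 1 vehicle liver. Of 10 tested partners, import subunits and proteases, none passed at 22 h by limma-voom (1 had an unadjusted p under 0.05) and 2 rose at 4 h. Among all tested genes, 17.6% were higher at 22 h and 21.7% at 4 h. Without vehicle replicate 1, the liver with high Ucp1 described below, 3 rose at 22 h, Grpel1 (0.18, limma-voom adjusted p = 0.00588), Timm44 of the import motor (0.21, adjusted p = 0.00269) and the protease subunit Spg7 (0.13, adjusted p = 0.0351). At 4 h Timm44 was added (0.18, adjusted p = 0.00585). Leaving out any other library added none at 22 h. Grpel1 and Grpel2 are the nucleotide exchange factors of Hspa9. Grpel2 ranged from 79.1 to 104 CPM in 22 h livers (median 101), from 145 to 177 CPM in 4 h livers (median 164) and from 74.9 to 113 CPM in vehicle livers (median 101). The 4 h livers stood wholly apart, with a log2 fold change of 0.78 against vehicle (limma-voom adjusted p = 5.32e-09), while at 22 h it was -0.01 (adjusted p = 0.92). At 22 h against 4 h the log2 difference was -0.79 (adjusted p = 7.69e-09). Grpel1 had 0.12 at 22 h (adjusted p = 0.105) and 0.23 at 4 h (adjusted p = 0.00341). Hscb, the J-domain protein of iron-sulfur cluster transfer to Hspa9, had -0.12 at 22 h (adjusted p = 0.621) and -0.29 at 4 h (adjusted p = 0.184).

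In the endoplasmic reticulum, where other Hsp70 and Hsp90 proteins fold secreted chains, 1 of 10 tested chaperones rose at 22 h and 6 of 10 at 4 h. Of all tested genes, 17.6% were higher at 22 h and 21.7% at 4 h. None of the 10 chaperones fell, except that P4hb did at 22 h without 22 h replicate 6 (limma-voom adjusted p = 0.0356). Hspa5 (BiP), the Hsp70 of this compartment, had a log2 fold change of 0.21 at 22 h (limma-voom adjusted p = 0.187) and 0.47 at 4 h (adjusted p = 0.0028). Its J-domain partner Dnajb9 was the one called at both times, at 0.51 and 0.71 (limma-voom adjusted p = 0.00237 at 22 h and 4.99e-05 at 4 h). Dnajc3, another J-domain partner, had 0.13 at 22 h (adjusted p = 0.217) and 0.39 at 4 h (adjusted p = 4.37e-04). At 22 h against 4 h, 2 of the 10 were lower and 0 higher, where 29.3% of all tested genes passed. With each library left out in turn, 1 to 6 were lower. Hspa5 (limma-voom adjusted p = 0.111) and Dnajb9 (adjusted p = 0.257) missed the threshold there. Hspa5 passed without 22 h replicate 5 (-0.34, adjusted p = 0.0238) or 6 (-0.36, adjusted p = 0.0117), and Dnajb9 without 22 h replicate 6 (-0.29, adjusted p = 0.0358).

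Cirbp and Rbm3, RNA-binding proteins whose mRNAs are known to increase when body temperature drops, were read as a counterpart. Cirbp had a log2 fold change of 0.23 at 22 h against vehicle (limma-voom adjusted p = 0.102) and -0.62 at 4 h against vehicle (adjusted p = 2.08e-04). Between 22 h and 4 h it differed by 0.86 (adjusted p = 4.28e-06), with all 8 of the 22 h livers above all 8 of the 4 h livers. Rbm3 had -0.18 at 22 h against vehicle (adjusted p = 0.145) and 0.02 at 4 h (adjusted p = 0.904).

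Over the 24 livers, the genes whose log2 CPM was most like that of Hsp90aa1 by Pearson's r, among those with a mean of at least 5 CPM and outside the 10, were Tcp1 (r = 0.84), Ahsa1 (0.84), Stip1 (0.83), Ahsa2 (0.82) and Rad52 (0.81). Tcp1 is a TRiC subunit, and Ahsa1 and Stip1 are cochaperones of Hsp90. For Hspd1 they were its pseudogene Hspd1-ps3 (r = 0.96), Cct5 (0.95), Supt5 (0.93), Zscan12 (0.92) and Pa2g4 (0.92). These are descriptions, since all pairs share libraries, treatment groups and scaling.

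Libraries held 25.8 to 35.2 M counts at 22 h, 24.7 to 35.2 M at 4 h and 14 to 44.1 M in vehicle livers. Hepatocyte markers were abundant in every library, at summed levels of 53652 to 71590 CPM at 22 h, 59433 to 75897 CPM at 4 h and 66426 to 100156 CPM in vehicle livers. Of these 8 markers, 4 were higher and 4 lower at 22 h against vehicle, and 3 were higher and 5 lower at 4 h. Kupffer cell and macrophage markers summed to 96 to 505 CPM at 22 h, 255 to 462 CPM at 4 h and 286 to 967 CPM in vehicle livers, and endothelial markers to 152 to 392, 323 to 430 and 367 to 641 CPM. No Kupffer cell, endothelial or stellate cell marker was higher in either comparison with vehicle, and none of those listed was at 0 in every library. The part of these cell type markers in the changes of the 10 genes was not tested. Vehicle replicate 1 held 63103 counts of Ucp1, the uncoupling protein of brown fat, whereas no other library had more than 20. It also held 1681 counts of Acta1, 768 of Myh1 and 644 of Ckm, genes of skeletal muscle, of which the other libraries had at most 6, 4 and 0. Among vehicle livers it was the highest for Hspa9 and for Hspb1 (16.9 CPM). Without it the log2 fold change of Hspa9 was 0.95 at 22 h and 0.94 at 4 h.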

How the data were processed

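The table held whole-number gene counts by Entrez number, as deposited by the authors, for 24 liver libraries. RNA came from frozen liver (Qiazol and miRNeasy Mini Kit) and libraries from the KAPA mRNA HyperPrep kit, per the labels' protocols. The submitters' processing notes name cutadapt, GSNAP and the build GRCm38. Tool versions, counting tool, annotation and strand setting are not given in the sources used here. Each column was matched to a mouse by the name in its sample description, and 0 columns were unmatched. The 8 libraries of a group are separate mice per the series' design text. Chi-square per degree of freedom was 21.6 to 348 over the 84 within-group pairs, so no library was a copy.

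Genes with enough counts in the groups were kept (minimum count 10, minimum total 15), which left 11508 of 22355. Counts were scaled by TMM (factors 0.897 to 1.06) and tested with limma 3.58.1 (voom and empirical Bayes) in R 4.3.3, with 3 group means in 1 model. It had 21 residual and 4.08 prior degrees of freedom, and p-values were adjusted by Benjamini-Hochberg over all genes. edgeR, written down as the main test, and DESeq2, an alternative, were not run, because a check of units did not accept the table's layout as counts. The fits were tested on simulated data, at 4 h against vehicle. There 6.25% of 1.25-fold, 46.9% of 1.5-fold and 93.9% of 2-fold changes were found, and 6 of 126 calls were false. The simulation changed few genes and gave all genes the same spread, so these shares need not hold for the real data. Exact permutation tests used SciPy 1.17.1. Gene coordinates and promoters are RefSeq's on GRCm38; exon lengths and overlaps are GENCODE's.

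The 10 genes and all lists were chosen with earlier results of these data known. Beside the 10, the text names the 3 genes of each list with the smallest p at 4 h and a mean of at least 1 CPM, with Hsf1, Hspa1a, Hspa1b, Cirbp, Rbm3 and Ucp1. It also names the 5 genes most like Hsp90aa1 and the 5 most like Hspd1. Serpinh1, Cct6a, Vbp1, Fkbp5, Zfand2a, Hsf2, P4hb, Timm44, Spg7, Acta1, Myh1 and Ckm were named after their values were seen. So were Cct3, Dnajb6, Fkbp4, Unc45a, Hspb6, Alb, Ttr, Serpina1a, Alas2, Elovl3 and Fgb.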

Additional observations from a re-analysis of the deposited data

Results flagged for a closer look

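Among the 10 genes in 3 groups, 30 sets of 8 livers were searched for a liver far from the others, and 4 were found, where chance alone marks about 1 in 20 sets. In 22 h livers, replicate 5 stood apart with 196.2 CPM of Hspe1 and with 2264 CPM of Hsp90ab1. In vehicle livers, replicate 1 stood apart with 1033 CPM of Hspa9, and replicate 8 with 1464 CPM of Hsp90ab1. The 22 h replicate 5 is the liver with the lowest hepatocyte marker sum of its group, although its Fgb was the highest. The vehicle replicate 1 is the liver with 63103 counts of Ucp1, against at most 20 in any other library, and the part of either in these values was not tested.

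Levels in IUB288 livers differed between 22 h and 4 h for 2 of the 10 genes. With no vehicle livers at 4 h, the part of sampling time alone cannot be told apart. Hspa4 had a log2 fold change of -0.2506 at 22 h against 4 h (limma-voom adjusted p = 2.28e-04), and every one of the 8 livers at 22 h lay below the 4 h mean. Hsp90ab1 had a log2 fold change of 0.2523 (limma-voom adjusted p = 0.00561), and every one of the 8 lay above it.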

How the results depend on the processing

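Over 34 other settings, 1020 values of the 10 genes were recomputed: 991 kept their direction, where called, and side of the threshold, 23 lost a call, 6 gained one and none reversed. Another 34 sign changes were in values with no call. With sample numbers 1 to 12 only, 1229 genes passed at 22 h against vehicle (4 of the 10), 2908 at 4 h against vehicle and 1473 at 22 h against 4 h; these fits hold fewer samples. With numbers 13 to 24 only, 3166 passed at 4 h against vehicle. With library quality weights, chosen after seeing the data, 4 of the 10 passed at 22 h against 4 h, Hspa8 (-0.24) and Dnaja1 (-0.20) being added; the cause was not tested. With each library left out in turn, genes called ranged from 3846 to 4281 (22 h against vehicle), 4743 to 5253 (4 h against vehicle) and 3081 to 3724 (22 h against 4 h). Deviations of same-numbered mice from their group means had correlations from -0.219 to 0.134 over the tested genes. Differently numbered mice were not compared, so this check cannot show whether the numbers pair mice. With a replicate block, 4388 (22 h against vehicle), 5425 (4 h against vehicle) and 3433 (22 h against 4 h) genes passed. With that block, Hspa4 at 22 h against vehicle lost its call (0.127, limma-voom adjusted p = 0.0661). That call was also lost in the 16 libraries of its comparison alone (adjusted p = 0.0798) and within either run of numbers. Hspa4 at 22 h against 4 h was lost in numbers 13 to 24 (-0.23, adjusted p = 0.0516), and Hsp90ab1 in numbers 1 to 12 (0.18, adjusted p = 0.255). Hspe1 passed there in numbers 13 to 24 (0.34, adjusted p = 0.0145) and Hspa8 in numbers 1 to 12 (-0.44, adjusted p = 0.0381). With library totals only, r of Hsp90aa1 with Hsp90ab1 at 4 h was 0.833 (exact permutation, adjusted p = 0.0272), against 0.635 (adjusted p = 0.18) after TMM scaling. Centred within runs of numbers, r of Hspd1 with Hspe1 at 22 h lost its call (0.687, exact permutation, adjusted p = 0.153). Without vehicle replicate 1, mitochondrial partners called were 3 at 22 h, against 0 with it. Planned edgeR and DESeq2 fits were not run.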
